A study of Mus musculus with 27 samples.

Results

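The mitochondrial genome of the mouse carries 37 of the 54532 genes in the count tables, and all 37 were taken by their name, which starts with mt-. They are 13 mRNA genes, 2 rRNA genes and 22 tRNA genes. RNA was sequenced from spleen B cells of wild-type C57BL6 mice, obtained through negative selection, after 3 h of culture. In experiment 1 there were 5 groups with 4 libraries each: B cells without stimulus or inhibitor, B cells given lipopolysaccharide (LPS, a T-independent stimulus) with vehicle, LPS with disulfiram (DSF, an anti-alcoholism drug), IL-4 plus anti-CD40 antibody (IL4CD40, a T-dependent stimulus) with vehicle, and IL4CD40 with DSF. In experiment 2 each of these 5 conditions had 1 library, as had each stimulus with ibrutinib, an inhibitor of Bruton's tyrosine kinase. DSF and ibrutinib were given at 1 µM, and no group had an inhibitor without a stimulus. The study calls the 4 samples of a group biologically independent. The age of the mice and whether these samples came from separate mice are not given in the sources used here, so p-values measure the spread between these samples.

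Both strands of mitochondrial DNA are copied from end to end by the mitochondrial RNA polymerase, and the long transcripts are cut into single RNAs, mostly at the tRNAs that lie between the other genes. Most of the mRNAs receive short poly(A) tails. The mRNAs encode subunits of complexes I, III and IV of the respiratory chain and of ATP synthase (complex V). All other subunits of these complexes, and every protein that transcribes or processes mitochondrial RNA, come from nuclear genes. Resting B cells are small and metabolically quiet, and activation is known to enlarge the cells and their mitochondria. In bulk RNA, fewer mitochondria and less RNA per mitochondrion cannot be told apart, nor can a change of mitochondrial RNA be told apart from an opposite change of all other RNA.

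The sequences bear on how these genes could be counted in RNA selected by poly-T beads and are given as the reference genome has them (GRCm38, the assembly of mm10; GENCODE vM21 transcripts, 5′ to 3′). The ends of 4 mRNA genes are shown first because the poly(A) tail completes some of them. Capitals mark the stop codon as far as the gene encodes it. The mRNA of mt-Co1, the catalytic core of complex IV, ends on a whole stop codon. The lengths of mt-Co3 (784 bases), mt-Nd4 (1378) and mt-Cytb (1144) leave 1 base over whole codons, and the tail adds the rest of the stop.
mt-Co1, chrM:6843-6872, + strand: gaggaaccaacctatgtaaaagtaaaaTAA
mt-Co3, chrM:9361-9390, + strand: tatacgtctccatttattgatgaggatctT
mt-Nd4, chrM:11515-11544, + strand: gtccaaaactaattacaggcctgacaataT
mt-Cytb, chrM:15259-15288, + strand: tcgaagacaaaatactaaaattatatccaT
The genes of the ATP synthase subunits mt-Atp8 and mt-Atp6 share 43 bases, and capitals mark the start codon of mt-Atp6 and the stop codon of mt-Atp8.
mt-Atp8 and mt-Atp6, chrM:7927-7969, + strand: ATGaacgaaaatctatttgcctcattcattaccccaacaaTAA

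Parts of mitochondrial DNA also lie in the nuclear genome as pseudogenes, and these shared most of the sequence of 5 mRNAs. Of the words of 50 bases in each gene, mt-Co2 shared 100%, mt-Co3 99.9%, mt-Atp6 99.5%, mt-Nd4l 98.8% and mt-Nd3 98.0% with annotated nuclear transcripts. The share was 62.2% for mt-Nd4, 51.1% for mt-Co1, 8.19% for mt-Nd2, 7.61% for mt-Nd5 and 1.04% for mt-Rnr2, and it was 0 for mt-Rnr1, mt-Nd1, mt-Nd6, mt-Cytb, mt-Atp8 and the tRNAs. A row of 7 pseudogenes on chromosome 1, named here after their values were seen, held most of this sequence. Against its pseudogene Gm28661, mt-Co2 had 0 mismatches over 681 aligned bases. Against Gm29216, mt-Co1 had 6 mismatches over 492 aligned bases, or 98.8% identity, and all 6 lie in the 60 bases shown. Capitals mark the bases that differ within a pair.
mt-Co1, chrM:6381-6440, + strand: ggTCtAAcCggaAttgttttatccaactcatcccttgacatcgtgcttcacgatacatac
Gm29216, chr1:24616138-24616197, - strand: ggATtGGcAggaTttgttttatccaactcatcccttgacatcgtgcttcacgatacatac
mt-Co2, chrM:7013-7072, + strand: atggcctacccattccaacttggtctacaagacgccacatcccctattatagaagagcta
Gm28661, chr1:24615506-24615565, - strand: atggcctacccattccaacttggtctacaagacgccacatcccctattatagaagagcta

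The 5 mRNAs with over 90% of shared sequence had mean counts of 60.85 to 1339 per library of experiment 1, whereas 7 of the other mRNAs had 15626 to 149144. The eighth, mt-Atp8, had a mean count of 14.8. Gm28661 had a mean count of 1334, beside 1339 for mt-Co2. How the authors' counting treated reads that map to more than 1 place is not given in the sources used here, so the counts of these 5 genes, and in part those of mt-Nd4 and mt-Co1, are uncertain. The genes mt-Nd5 and mt-Nd6 overlap by 14 bases on opposite strands, and whether counting used the strand is not given either. Counts on any gene, mt-Nd6 and the tRNAs on the - strand among them, could therefore include RNA of the opposite strand.

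**Figure D1:**
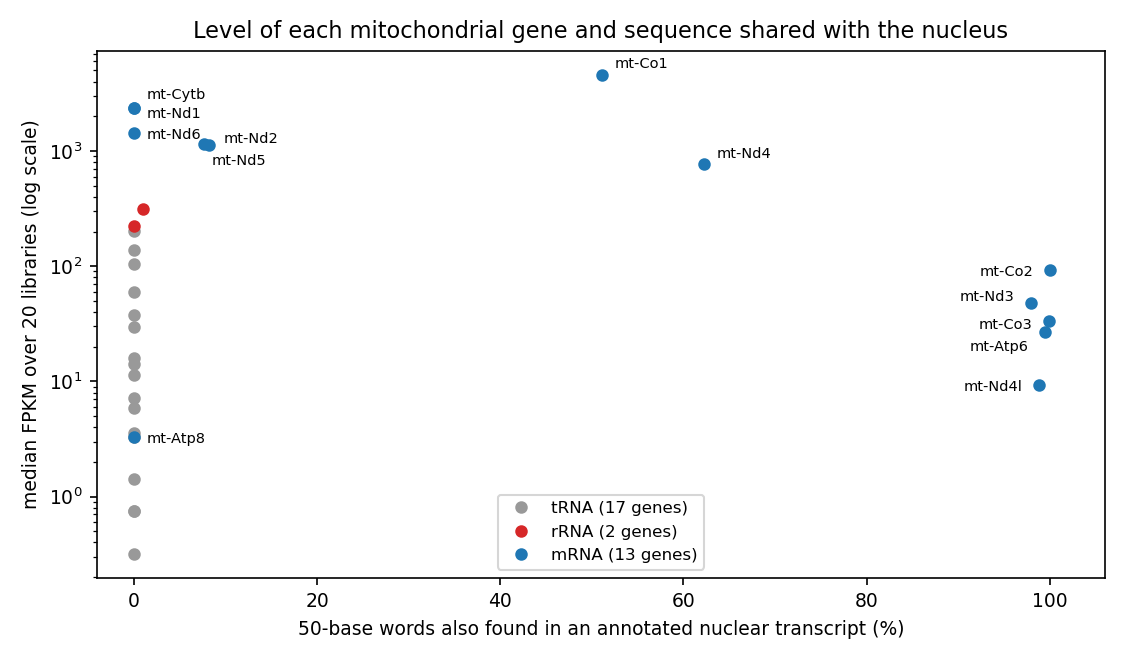
Median FPKM of each mitochondrial gene over the 20 libraries of experiment 1 (vertical axis, log scale) against the percentage of its 50-base words that an annotated nuclear transcript also holds (horizontal axis). The 5 mRNAs above 90% lie below 100 FPKM, and mt-Co1, at 51.1%, has the highest level, 4594 FPKM. The 17 tRNA genes with a median above 0 are drawn.

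Total counts per library were 17804851 to 23632992 in experiment 1 and 16049295 to 24619776 in experiment 2. The unstimulated libraries of experiment 1 fell into a pair of pairs. Their counts differed by a chi-square per gene of 2.86 within replicates 1 and 2 and 6.64 within replicates 3 and 4, but of 84.8 to 90.8 across, beside 3.40 to 27.2 for the 24 pairs within the other groups. Every comparison with unstimulated cells is therefore also given with either pair alone. The IL4CD40 libraries with vehicle split likewise, to a smaller degree. Their values were 3.49 within replicates 1 and 2 and 6.41 within replicates 3 and 4, but 15.6 to 27.2 across. Comparisons with either pair of these alone were not run. The summed level of 8 B cell marker genes was 3719 to 9176 CPM (counts scaled to a common library size by TMM) over the 20 libraries of experiment 1, that of 6 myeloid genes 149 to 659 CPM, and lists for T cells, neutrophils, erythroid cells, NK cells and platelets stayed at or below 45.7 CPM, with no marker at 0 in all libraries.

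Levels of the genes differed widely, although those of each strand start from shared transcripts. Per length, as the authors' FPKM, mt-Co1 was highest with a median of 4594 (3341 to 5440 over the 20 libraries). The complex III subunit mt-Cytb (2385) and the complex I subunit mt-Nd1 (2377) followed, then mt-Nd6 at 1443 (1035 to 1974), the only mRNA of the light strand, and the complex I subunits mt-Nd5 (1149), mt-Nd2 (1132) and mt-Nd4 (770). Ranges overlapped between neighbours such as mt-Cytb and mt-Nd1. The rRNAs of the mitochondrial ribosome, mt-Rnr2 (311) and mt-Rnr1 (225), stood lower in this poly(A)-selected RNA, and mt-Co1 alone took 36.5% to 46.3% of all mitochondrial counts.

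The tRNA genes, which are short and without long poly(A) tails, took 0.00317% to 0.00581% of counts in experiment 1. The 8 tRNA genes on the light strand summed to 429 to 994 counts per library. The 14 on the heavy strand summed to 114 to 322, a ratio of light to heavy of 2.09 to 5.07. As the strand setting of counting is not given, these counts could include RNA of the opposite strand. The highest were mt-Tp, the proline tRNA, at a median of 204 FPKM, and mt-Tc, the cysteine tRNA, at 138 FPKM. No count fell on mt-Tf or mt-Td in any of the 27 libraries. The 4 tRNAs shown passed a test in a comparison of groups, and 3 of them are read from the strand opposite to most genes. Capitals mark the anticodon.
mt-Tl1 (leucine), chrM:2676-2750, + strand: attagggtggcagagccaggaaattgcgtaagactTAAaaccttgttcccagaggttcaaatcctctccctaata
mt-Te (glutamate), chrM:14071-14139, - strand: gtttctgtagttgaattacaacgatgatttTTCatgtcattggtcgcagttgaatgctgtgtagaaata
mt-Tc (cysteine), chrM:5192-5257, - strand: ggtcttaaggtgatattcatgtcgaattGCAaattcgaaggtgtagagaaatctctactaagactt
mt-Tp (proline), chrM:15356-15422, - strand: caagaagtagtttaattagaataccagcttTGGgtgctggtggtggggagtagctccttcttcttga

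The share of all gene counts on the 37 genes was lower with either stimulus and vehicle than without stimulus, and was higher with DSF than with vehicle. In replicates 1 to 4 it was 1.94%, 2.10%, 2.06% and 2.07% in unstimulated cells. It was 1.69%, 1.75%, 1.79% and 1.74% with LPS, and 1.97%, 1.89%, 1.81% and 1.86% with LPS and DSF. With IL4CD40 it was 1.52%, 1.75%, 1.70% and 1.76%, and with DSF added 1.97%, 1.91%, 2.08% and 2.02%. No library of a stimulus with vehicle reached the unstimulated libraries or those of the same stimulus with DSF. The means were 2.04% ± 0.0706 (SD, n = 4) unstimulated, 1.74% ± 0.0405 with LPS, 1.88% ± 0.0679 with LPS and DSF, 1.68% ± 0.113 with IL4CD40, and 1.99% ± 0.0727 with IL4CD40 and DSF. The ratio of means to unstimulated cells was 0.853 for LPS and 0.825 for IL4CD40, and that of DSF to vehicle was 1.08 and 1.18. The vehicle libraries enter both ratios of a stimulus. These sums were given no test. The sum of the 6 myeloid markers was also higher without stimulus, at 542 to 659 CPM against 149 to 195 CPM with either stimulus and vehicle. Of the 6, 4 were lower and 0 higher with each stimulus by the test described below. Of all genes tested, 33.3% were lower with LPS and 32.1% with IL4CD40. The log2 fold changes of the 6 ran from -2.58 to 1.25 with LPS and from -2.16 to 0.03 with IL4CD40. Lyz2 alone reached 549 CPM. The part of these markers in the share was not tested.

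By class, the mRNAs carried nearly all of this share. The rRNA share was 0.0612% ± 0.00317 with LPS and 0.0738% ± 0.000649 with LPS and DSF, a ratio of 1.21, and with IL4CD40 its ratio was 1.16, both without overlap. As a share of mitochondrial counts alone, the rRNAs took 3.51% with LPS and 3.93% with LPS and DSF, without overlap, whereas 4.21% and 4.10% with IL4CD40 overlapped. The tRNA share overlapped between DSF and vehicle with both stimuli, at ratios of 0.956 and 1.01.

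**Figure D2:**
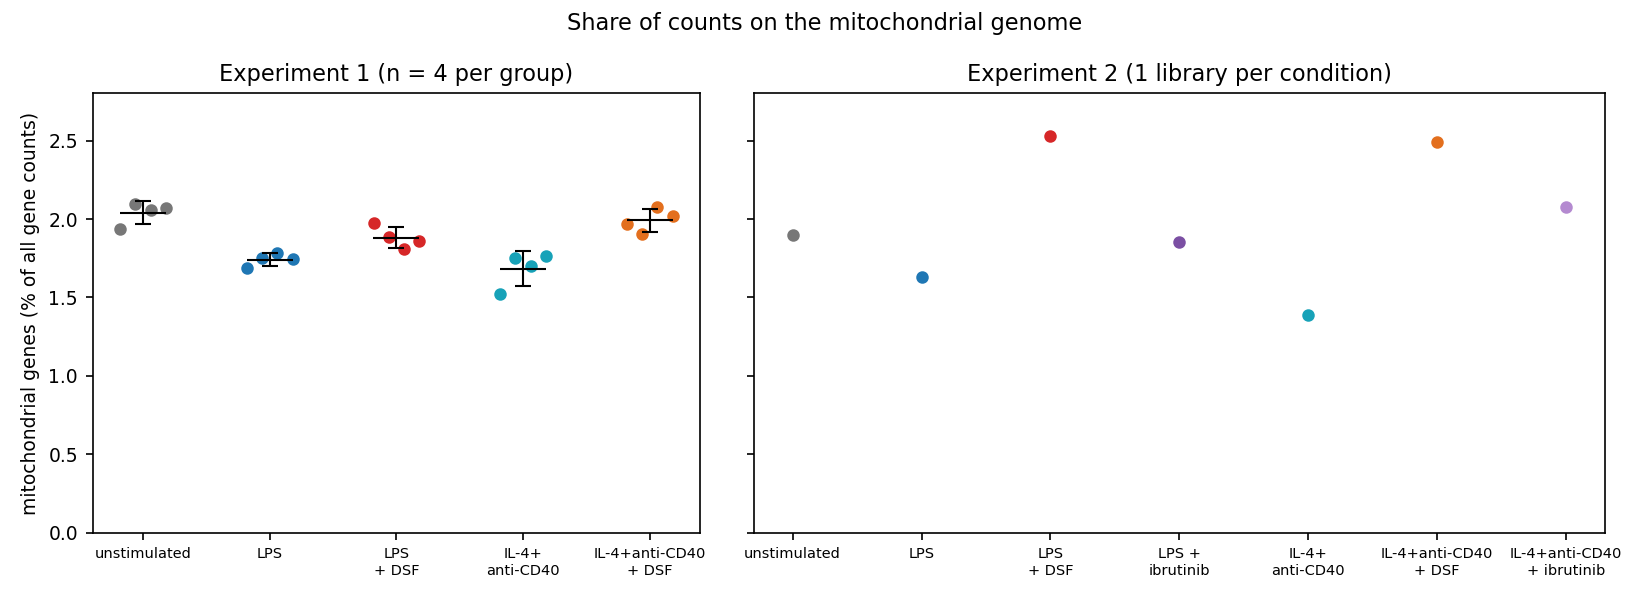
Percentage of all gene counts on the 37 mitochondrial genes in each library (points), for experiment 1 with the mean ± SD of 4 libraries (left) and experiment 2 with 1 library per condition (right). In both panels the vehicle libraries of each stimulus lie below those with DSF, which reach 2.08% in experiment 1 and 2.53% in experiment 2.

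DSF in LPS-stimulated B cells was followed by higher levels of most mRNAs and of both rRNAs. For each gene, counts were scaled by TMM, which sets the level of the typical gene equal between libraries, and tested with edgeR's quasi-likelihood test with Benjamini-Hochberg adjustment over all genes tested, calling an adjusted p under 0.05. Of the 24 mitochondrial genes that passed the filter on low counts, 12 were higher and 0 lower, beside 35.1% higher and 36% lower of all 14154 genes tested. The 13 mRNAs had 9 higher with a median log2 fold change of 0.33 (0.10 to 0.47), beside a median of 0.00 over all genes. The folds of these 9 were 1.20 to 1.38. In 11 of the 24 every DSF library lay above every vehicle library and in 0 below, beside 30.3% and 33.8% of all genes. Under total counts, where the median gene shifted by -0.21, 8 of the 24 were higher and 1 was lower. Of all 14154 genes, 3470 were then higher and 6686 lower. The median over the mRNAs and rRNAs was 0.16 under total counts and 0.36 with TMM. Under total counts mt-Nd5 (0.05), mt-Nd6 (0.11), mt-Cytb (0.07) and mt-Tl1 (0.45) no longer passed.

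Both rRNAs rose. The small-subunit rRNA mt-Rnr1 had 193, 205, 234 and 203 CPM with LPS and 277, 282, 279 and 309 CPM with LPS and DSF. The large-subunit rRNA mt-Rnr2 had 394, 412, 432 and 404 CPM with LPS and 551, 576, 563 and 579 CPM with DSF added. The groups did not overlap for either gene, and the log2 fold change of mt-Rnr2, 0.48 with an SE of 0.04 (adjusted p = 4.82e-11), was the largest value among the mRNAs and rRNAs, beside 0.47 ± 0.05 (± SE here and in all log2 fold changes; adjusted p = 4.86e-09) for mt-Rnr1.

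Among the 7 complex I subunits, which build the proton-pumping arm of that enzyme, 5 rose. The log2 fold changes were 0.39 ± 0.04 for mt-Nd2, 0.36 ± 0.04 for mt-Nd1, 0.33 ± 0.04 for mt-Nd4, 0.32 ± 0.05 for mt-Nd6 and 0.26 ± 0.04 for mt-Nd5, with adjusted p from 1.25e-08 to 9.93e-06. The light-strand mRNA mt-Nd6 had 676, 771, 772 and 702 CPM with LPS and 967, 885, 805 and 935 CPM with LPS and DSF, so that it did not overlap either. No call was made for mt-Nd4l (0.39 ± 0.18, adjusted p = 0.0597) or mt-Nd3 (0.15 ± 0.08, adjusted p = 0.103), both with most of their sequence in nuclear copies. The same limit holds for mt-Co3 and mt-Atp6, which were called (below).

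The complex III subunit mt-Cytb rose by 0.28 ± 0.04 (adjusted p = 1.5e-06). In complex IV, mt-Co1 rose by 0.32 ± 0.04 (adjusted p = 2e-07), from 6566, 6801, 6911 and 6775 CPM with LPS to 8462, 8333, 8126 and 8347 CPM with DSF, without overlap. The subunit mt-Co3 rose by 0.47 ± 0.06 (adjusted p = 4.28e-07). The copper-binding subunit mt-Co2 had the smallest value, 0.10 ± 0.11 (adjusted p = 0.414), with 61.8, 102, 61.2 and 58.7 CPM with LPS and 74.0, 80.2, 72.6 and 76.2 CPM with DSF. Its groups overlapped through LPS replicate 2 alone, and without that library the log2 fold change was 0.32. In complex V, mt-Atp6 rose by 0.43 ± 0.08 (adjusted p = 4.79e-05) and mt-Atp8, with few counts, had 0.44 ± 0.39 (adjusted p = 0.318).

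Of the 9 tRNAs tested, mt-Tl1, which reads leucine codons, was higher with DSF, by 0.66 ± 0.23 (adjusted p = 0.0145). It had 2.07, 1.18, 1.84 and 2.74 CPM with LPS and 3.58, 2.57, 2.32 and 3.62 CPM with DSF, and the groups overlapped. Its value was 0.45 without LPS replicate 2 and 0.56 without LPS and DSF replicate 4, neither of which passed the threshold.

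In cells stimulated with IL4CD40, DSF was again followed by higher mRNAs and rRNAs. Of 25 mitochondrial genes tested, 14 were higher and 0 lower, beside 30.1% and 31.6% of all 14275 genes tested. The mRNAs had 10 of 13 higher with a median log2 fold change of 0.42 (0.16 to 0.57), beside -0.02 over all genes, and folds of 1.16 to 1.49. In 15 of the 25 all DSF libraries lay above all vehicle libraries, and in 0 below, beside 30.6% and 26.5% of all genes. Under total counts 11 were higher and 1 lower, with the median gene at -0.16. Of all 14275 genes, 3262 were then higher and 5833 lower. The median over the mRNAs and rRNAs was 0.27 under total counts and 0.42 with TMM. Under total counts mt-Nd5 (0.06), mt-Tc (0.26) and mt-Tp (0.08) no longer passed.

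The rRNA mt-Rnr1 rose by 0.53 ± 0.08 (adjusted p = 0.000118), from 171, 179, 159 and 187 CPM with vehicle to 254, 229, 295 and 268 CPM with DSF. For mt-Rnr2 the vehicle libraries had 464, 512, 467 and 483 CPM and the DSF libraries 612, 554, 653 and 637 CPM, a log2 fold change of 0.29 ± 0.06 (adjusted p = 0.00148). Neither rRNA overlapped between the groups.

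Of the complex I subunits, mt-Nd6 had the largest value, 0.55 ± 0.08 (adjusted p = 0.000136), with 526, 648, 598 and 592 CPM with vehicle and 869, 819, 1045 and 878 CPM with DSF. All 4 DSF libraries of mt-Nd6 lay above the vehicle libraries. The log2 fold changes were 0.49 ± 0.07 for mt-Nd2, 0.47 ± 0.07 for mt-Nd4, 0.42 ± 0.07 for mt-Nd1 and 0.21 ± 0.06 for mt-Nd5 (adjusted p = 0.0103, the largest of these 4), while mt-Nd4l (0.33 ± 0.17, adjusted p = 0.116) and mt-Nd3 (0.23 ± 0.10, adjusted p = 0.0716) did not pass. For mt-Cytb it was 0.40 ± 0.07 (adjusted p = 0.000478).

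In complex IV all 3 subunits rose. The counts of mt-Co2 and mt-Co3, and of mt-Atp6 below, are among those uncertain through nuclear copies. The vehicle libraries had 5058, 6031, 5896 and 6302 CPM of mt-Co1 and the DSF libraries 7760.0, 7483, 8285 and 8409 CPM, a log2 fold change of 0.40 ± 0.07 (adjusted p = 0.000573). For mt-Co2 it was 0.57 ± 0.07 (adjusted p = 2.27e-05), with 44.6, 49.4, 47.8 and 52.3 CPM with vehicle and 72.0, 71.1, 83.2 and 74.2 CPM with DSF. None of these groups overlapped. The value of mt-Co3 was as large, 0.57 ± 0.13 (adjusted p = 0.00292), with 24.4, 24.1, 20.4 and 23.9 CPM with vehicle and 31.8, 33.2, 47.8 and 31.2 CPM with DSF, where replicate 3 stood highest. In complex V, mt-Atp6 rose by 0.48 ± 0.09 (adjusted p = 0.000831). The smallest value was that of mt-Atp8, 0.16 ± 0.30 (adjusted p = 0.662), with 0.596, 0.556, 0.497 and 0.839 CPM with vehicle and 0.757, 0.989, 0.557 and 0.600 CPM with DSF, which overlapped.

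Of 10 tRNAs tested, mt-Tc (0.41 ± 0.14, adjusted p = 0.0237) and mt-Tp (0.23 ± 0.08, adjusted p = 0.033) were higher with DSF. Neither call held without some single libraries. Without vehicle replicate 3 mt-Tc had 0.28, and without vehicle replicate 1 mt-Tp had 0.19. The glutamate tRNA mt-Te had -0.77 ± 0.32 (adjusted p = 0.0532) and mt-Tl1 -0.12 ± 0.14 (adjusted p = 0.5).

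The difference of the DSF effect between the stimuli was tested as an interaction. It was past the threshold for 0 of 26 mitochondrial genes in either direction, beside 7.92% and 6.96% of all genes, and DESeq2 called 1. Written as DSF in LPS minus DSF in IL4CD40, the differences among mRNAs and rRNAs whose 95% interval did not reach 0 were -0.47 ± 0.18 for mt-Co2 (adjusted p = 0.0821), -0.24 ± 0.11 for mt-Nd6 (adjusted p = 0.156) and 0.19 ± 0.07 for mt-Rnr2 (adjusted p = 0.0931) in edgeR's test. The 95% intervals of these 3, -0.82 to -0.12, -0.45 to -0.02 and 0.04 to 0.33, leave room for unequal effects. They were not adjusted for the number of genes tested, and the 3 genes were picked by them. The value of mt-Co2 includes LPS replicate 2, which stood apart at 102 CPM beside a group median of 61.5 CPM. Its counts are also uncertain through nuclear copies. For mt-Co1 the 95% interval was -0.23 to 0.06. The difference of mt-Atp8, which has few counts, was 0.28 ± 0.55 (adjusted p = 0.791).

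To see which members moved unequally to the others, each comparison was also scaled to the summed counts of the 13 mRNAs. With LPS, DSF then left 2 genes higher and 2 lower of 24, beside 20.4% higher and 52.8% lower of all genes. The rRNAs were the higher ones, at 0.16 ± 0.05 for mt-Rnr1 (adjusted p = 0.00714) and 0.17 ± 0.05 for mt-Rnr2 (adjusted p = 0.0032). The lower ones were mt-Tc, at -0.49 ± 0.15 (adjusted p = 0.0033), and mt-Co2, at -0.21 ± 0.09 (adjusted p = 0.0312), whose value was 0.02 without LPS replicate 2. With all 20 libraries in 1 fit none of the 4 passed the threshold. With IL4CD40, 0 were higher and 3 lower of 25, beside 13.4% and 52.7%. All 3 were tRNAs, mt-Te at -1.16 ± 0.31 (adjusted p = 0.00301), mt-Tl1 at -0.51 ± 0.17 (adjusted p = 0.0143) and the second leucine tRNA mt-Tl2 at -0.52 ± 0.18 (adjusted p = 0.0151).

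Other RNAs also moved with DSF, and their part in these results was not tested. Small RNAs without a poly(A) tail can be carried over past the poly-T beads, and can also change in the cells. Summed over 8 genes, they had 8.44 to 15.5 CPM with LPS and 14.9 to 21.7 CPM with DSF added. With IL4CD40 the sums were 10.2 to 14.9 and 13.4 to 22.2 CPM. Of the 8, 3 were at 0 throughout and Rn7sk, the only 1 tested, rose by 0.53 ± 0.13 (adjusted p = 0.00108) and 0.48 ± 0.18 (adjusted p = 0.0365). The 6 myeloid markers summed to 149 to 171 CPM with LPS and 165 to 174 CPM with DSF added, and to 172 to 195 and 232 to 291 CPM with IL4CD40. The 8 B cell markers summed to 4780 to 4881 and 3719 to 3961 CPM with LPS, and to 4353 to 4669 and 3969 to 4131 CPM with IL4CD40. Of the 7 pseudogenes on chromosome 1, 5 were higher with DSF and 0 lower in each comparison, beside 35.1% and 30.1% higher of all genes, with log2 fold changes of 0.31 ± 0.05 and 0.65 ± 0.08 for Gm28661.

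After stimulation alone, with TMM, the mRNAs and rRNAs had a median log2 fold change of 0.09 with LPS and -0.10 with IL4CD40. Over all genes the medians were -0.05 and -0.04. As the unstimulated libraries were split, few calls do not show that the genes were unchanged. With LPS, 0 of 26 were higher or lower by edgeR's test, beside 29.6% and 33.3% of all 14477 genes. DESeq2 called 2 higher, and 1 had an unadjusted p under 0.05 in edgeR. In 1 of the 26, mt-Nd4, all LPS libraries lay above the unstimulated ones and in 0 below, beside 29.5% and 31.4% of all genes. Relative to the mitochondrial mRNAs 0 were higher and 0 lower, beside 27.4% and 32.5%. Among mRNAs and rRNAs the values ran from -0.13 ± 0.11 for mt-Co1 to 0.33 ± 0.21 for mt-Co2. Between them lay mt-Co3 (-0.09), mt-Atp6 (-0.02), mt-Nd4l (-0.01), mt-Rnr2 (0.02), mt-Cytb (0.03), mt-Nd6 (0.08), mt-Nd1, mt-Nd2 and mt-Nd3 (each 0.09), mt-Nd5 (0.11), mt-Nd4 and mt-Rnr1 (each 0.12) and mt-Atp8 (0.27). The share of counts fell short of the unstimulated level, as given above, while these values centred near 0, because TMM scaled the libraries apart. Under total counts the median gene lay at -0.27, and 0 mitochondrial genes were higher and 2 lower, beside 2907 and 6383 of all 14477 genes.

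Markers of other cells moved with this comparison and with that of IL4CD40, and their part in the results was not tested. The 6 myeloid markers summed to 542 to 659 CPM unstimulated, 149 to 171 CPM with LPS and 172 to 195 CPM with IL4CD40, without overlap. The 5 neutrophil markers summed to 8.79 to 37.8 CPM unstimulated, 8.14 to 9.47 CPM with LPS and 7.24 to 9.34 CPM with IL4CD40, and the 6 erythroid markers to 2.36 to 15.9, 1.31 to 2.74 and 1.25 to 1.58 CPM. The unstimulated libraries were spread widely in both of these lists. The sum of the 8 B cell markers was highest there as well, at 5849 to 9176 CPM against 4780 to 4881 and 4353 to 4669 CPM.

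The unstimulated libraries decided this comparison. Of mt-Rnr2 they had 490.0, 496, 317 and 317 CPM and of mt-Rnr1 217, 215, 163 and 178 CPM, with replicates 1 and 2 above 3 and 4. The order was opposite for mt-Co1, with 6249, 6839.6, 8525 and 8038 CPM. Of mt-Co2 they had 52.7, 61.8, 42.7 and 68.4 CPM. The LPS libraries were closer together for mt-Rnr1, mt-Rnr2 and mt-Co1. Against unstimulated replicates 1 and 2 alone, 2 of the 26 genes were higher and 5 lower with LPS. Of all 15090 genes tested in that way, 5005 were higher and 5238 lower. Against replicates 3 and 4 alone 14 were higher and 1 was lower, beside 5618 and 5902 of all 15229 genes. For mt-Rnr2 the log2 fold change against replicates 1 and 2 was -0.26.

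With IL4CD40, 2 of 25 genes were higher and 1 lower than in unstimulated cells, beside 30.4% and 32.1% of all 14433 genes. All stimulated libraries lay above the unstimulated ones in 3 genes and below them in 3, beside 27.8% and 32.3%. The tRNA mt-Te had 0.526, 0.850, 0.205 and 0.450 CPM unstimulated and 1.38, 2.08, 2.8 and 1.36 CPM stimulated, a log2 fold change of 1.95 ± 0.42 (adjusted p = 0.00304). For mt-Tl1 it was 0.84 ± 0.20 (adjusted p = 0.0057), with 2.52, 2.44, 1.51 and 1.98 CPM unstimulated and 3.30, 3.24, 4.02 and 4.09 CPM stimulated. Neither tRNA overlapped. Relative to the mitochondrial mRNAs these same 2 genes were the ones higher and 0 were lower, at 2.07 and 0.98, beside 33.4% and 26.2% of all genes. With LPS, mt-Te had 1.12 ± 0.45 (adjusted p = 0.0569). The counts of mt-Te were low, 5 to 22 per unstimulated library.

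The ATP synthase subunit mt-Atp6 was lower with IL4CD40, by -0.29 ± 0.10 (adjusted p = 0.028), from 17.2, 18.6, 16.5 and 19.8 CPM to 13.7, 13.5, 14.0 and 15.6 CPM without overlap. The counts of mt-Atp6 are among those uncertain through nuclear copies. The call was lost without stimulated replicate 1, 2 or 3 or unstimulated replicate 2 or 4, at values of -0.24 to -0.28. The other mRNAs and rRNAs ran from -0.30 ± 0.13 for mt-Co1 (adjusted p = 0.0669) to 0.30 ± 0.16 for mt-Rnr2 (adjusted p = 0.13). The values of mt-Co3 (-0.21), mt-Nd6 (-0.18), mt-Co2 (-0.17), mt-Cytb (-0.14), mt-Nd4l (-0.11), mt-Rnr1 (-0.10), mt-Nd4 (-0.07) and mt-Nd3 (-0.05) lay below 0, and those of mt-Nd2 (0.02), mt-Nd5 (0.04), mt-Nd1 (0.06) and mt-Atp8 (0.09) above it. Against unstimulated replicates 1 and 2 alone 2 of 27 genes were higher and 6 lower, beside 4352 and 4705 of all 15066 genes. Against replicates 3 and 4 alone 6 of 25 were higher and 2 lower, beside 5157 and 5545 of all 15335 genes.

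**Figure D3:**
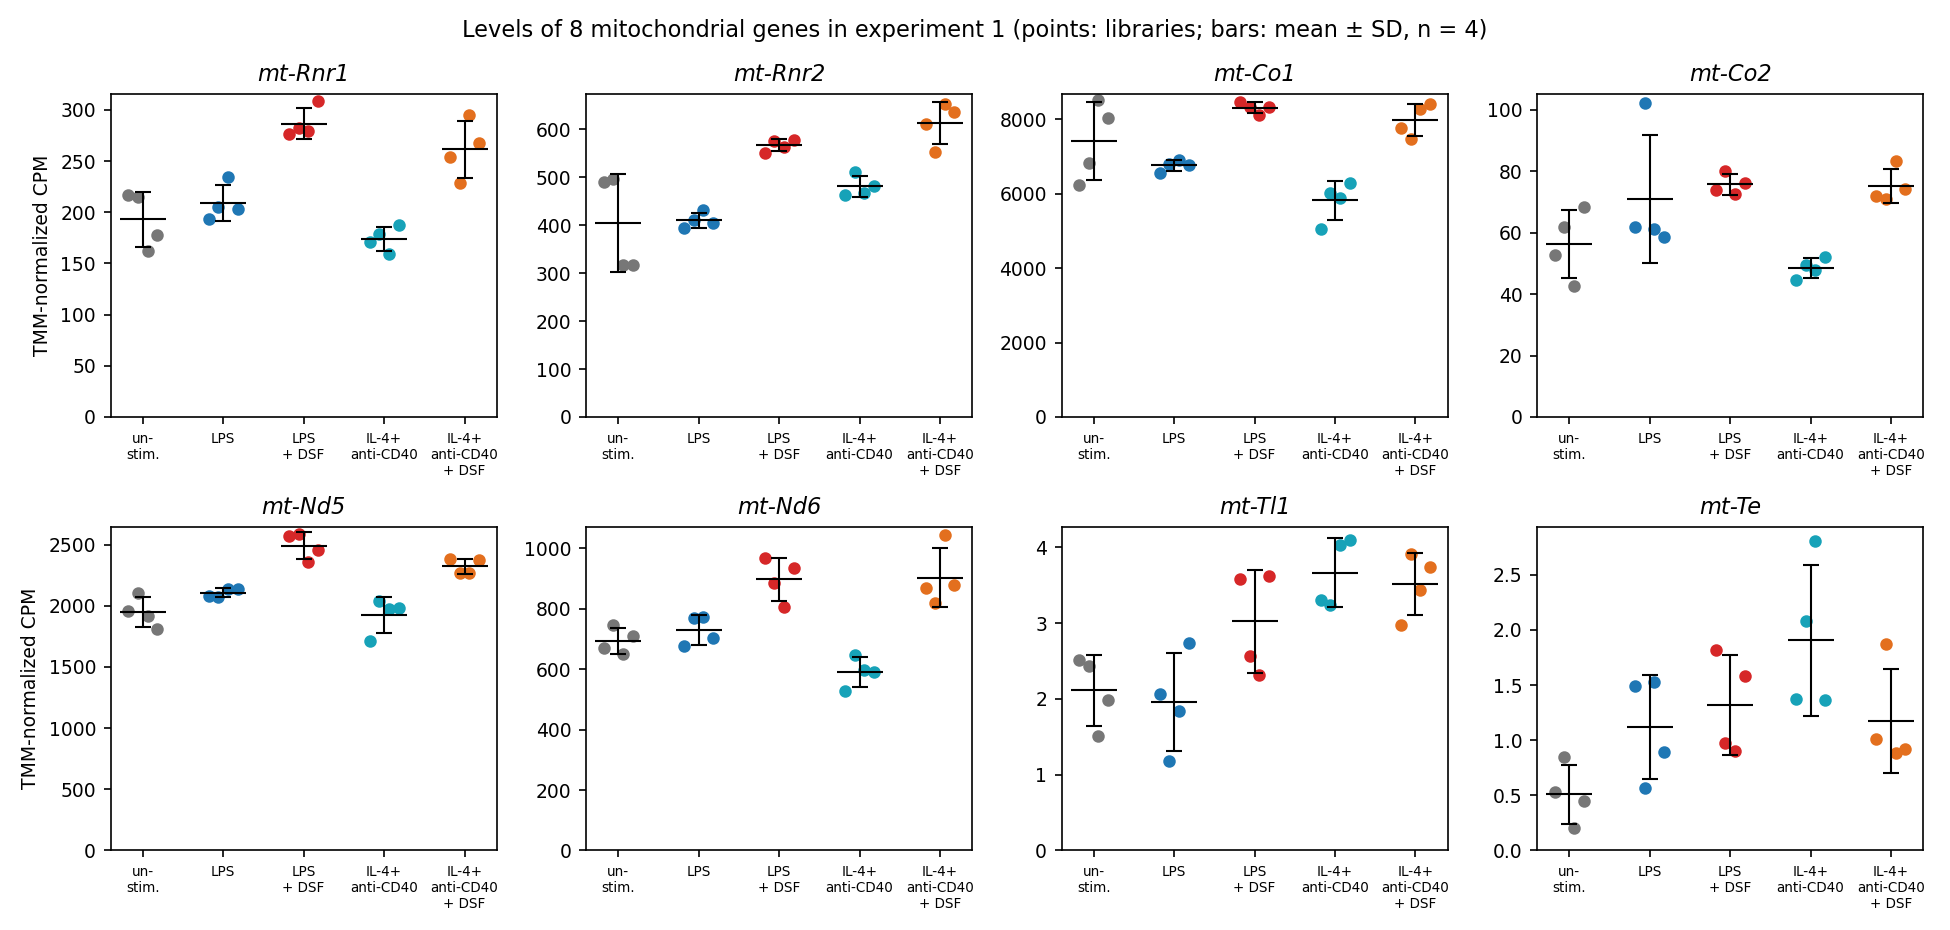
TMM-normalized CPM of 8 mitochondrial genes in each library of experiment 1 (points) with the mean ± SD of 4 libraries. For mt-Rnr1, mt-Rnr2, mt-Co1, mt-Nd5 and mt-Nd6 the DSF libraries lie above the vehicle libraries of the same stimulus, and the unstimulated libraries of mt-Rnr2 split into 490.0 and 496 CPM against 317 and 317 CPM.

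In experiment 2, with 1 library per condition and hence no test, DSF again went with higher levels. The mitochondrial share was 1.63% with LPS and 2.53% with LPS and DSF, and 1.39% with IL4CD40 and 2.49% with DSF added, beside 1.90% (95% Wilson interval 1.89% to 1.90%, for counting error only) in unstimulated cells. With DSF, the log2 ratio was above 0 for 21 of 24 genes with LPS and for 24 of 24 with IL4CD40, beside 48.7% and 49.7% of 14275 genes. It was below 0 for 3 and 0, beside 51.3% and 50.3%. All 14 mRNAs and rRNAs with a mean of at least 10 counts were above 0 in both, with medians of 0.91 (0.02 for mt-Nd3 to 1.31 for mt-Rnr1) and 1.07 (0.64 to 1.83 for mt-Rnr1). Without TMM, by total counts, these medians were 0.60 and 0.83, and mt-Nd3 with LPS turned to -0.28 while the other 13 stayed above 0 and all 14 did with IL4CD40. The medians over all genes were then -0.34 with LPS and -0.25 with IL4CD40.

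Among mRNAs and rRNAs the largest ratio was that of mt-Rnr1, which had 238 CPM with LPS and 591 CPM with DSF added, and 181 and 647 CPM with IL4CD40. With LPS the tRNA mt-Ty, at 5 and 32 counts, had a larger log2 ratio, 2.41. For mt-Rnr2 the values were 679.7 and 1244 CPM, and 594 and 1277 CPM. For mt-Co1 they were 5622 and 11846 CPM, and 4690.0 and 10714 CPM, a log2 ratio above 1 in each. The mRNA of mt-Nd6 had 588 and 819 CPM, and 509.9 and 795 CPM. The stimuli with vehicle lay at or below the unstimulated library for most genes. With LPS 7 were above and 17 below 0 of 24, beside 49.4% and 50.5%, and with IL4CD40 3 were above and 21 below, beside 49.3% and 50.7%. The medians over mRNAs and rRNAs were -0.07 and -0.24.

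Ibrutinib, at the same dose and time as DSF, went with smaller ratios in LPS-stimulated cells. There the share was 1.85% and 17 of 24 genes were above and 7 below 0, beside 51.3% and 48.6% of all genes, with a median of 0.20 (-0.42 for mt-Nd3 to 0.51 for mt-Co3) over mRNAs and rRNAs. With IL4CD40 and ibrutinib the share was 2.07% and 22 of 24 genes were above and 2 below 0, beside 50.6% and 49.3%, with a median of 0.54 (0.14 to 0.90). In that library the rRNAs had a median of 0.18 and the mRNAs of 0.58, whereas with DSF the rRNAs had 1.47 and the mRNAs 1.01. The light-strand mt-Nd6 had 952 CPM with IL4CD40 and ibrutinib, above 795 CPM with DSF, and 705 CPM with LPS and ibrutinib, below 819 CPM. With 1 library each, these values have no replicate check.

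Nuclear genes for mitochondrial RNA moved the other way under DSF. Lists were described by counts and medians alone. Of 18 genes for transcription and copying of mitochondrial DNA, 2 were higher and 13 lower with LPS (median log2 fold change -0.42), and 0 were higher and 10 lower with IL4CD40 (median -0.40). Of all genes tested, 35.1% were higher and 36% lower with LPS, and 30.1% higher and 31.6% lower with IL4CD40. Polrmt, the mitochondrial RNA polymerase, fell by 0.87 ± 0.06 with LPS (adjusted p = 3.56e-12) and by 0.78 ± 0.06 with IL4CD40 (adjusted p = 1.42e-06). Tfam, which packages mitochondrial DNA and activates its promoters, fell by 0.11 ± 0.05 (adjusted p = 0.0473) and by 0.37 ± 0.06 (adjusted p = 0.000237). The rRNA methyltransferase Tfb1m (-1.0 and -1.01), the elongation factor Tefm (-0.88 and -0.94) and Mterf2 (-1.02 and -0.64) were lower in both. Polg2, the accessory subunit of the mitochondrial DNA polymerase, had 0.77 ± 0.10 with LPS (adjusted p = 1.04e-07) and 0.15 ± 0.14 with IL4CD40 (adjusted p = 0.385).

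Of 25 genes tested for cutting, polyadenylation, modification and decay of mitochondrial RNA, 21 were lower and 1 higher with LPS (median -0.47), and 22 lower and 1 higher with IL4CD40 (median -0.48), beside the same shares of all genes. Elac2, which cuts the 3′ ends of tRNAs, had the largest values, -1.40 ± 0.05 (adjusted p = 1.13e-17) and -1.34 ± 0.09 (adjusted p = 1.01e-06), after 1.34 ± 0.11 and 1.52 ± 0.13 with the stimuli alone. The vehicle libraries enter both of its comparisons. The mRNA-stabilizing partners Lrpprc (-0.30 ± 0.04 and -0.53 ± 0.05) and Slirp (-1.0 ± 0.29, adjusted p = 0.00347, and -0.50 ± 0.29, adjusted p = 0.152) and the poly(A) polymerase Mtpap (-0.10 ± 0.06, adjusted p = 0.154, and -0.15 ± 0.05, adjusted p = 0.027) had smaller values or wider errors. Fastkd1 (-1.07 and -0.79), Ptcd2 (-1.02 and -0.89) and the rRNA methyltransferase Mrm3 (-0.83 and -0.85) were lower in both, and the rRNA methyltransferase Mrm2 (0.82 and 0.29) was higher in both. With the stimuli alone, 19 of the 25 were higher and 3 lower with LPS and 18 higher and 1 lower with IL4CD40, beside 29.6% higher and 33.3% lower of all genes with LPS and 30.4% and 32.1% with IL4CD40. In experiment 2, with 1 library per condition, 24 of the 25 had a ratio below 0 with DSF under each stimulus. Of all genes, 51.3% were below 0 with LPS and 50.3% with IL4CD40.

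Of 9 regulators of mitochondrial biogenesis tested, 6 were lower and 2 higher with DSF in LPS and 8 lower and 0 higher with DSF in IL4CD40, beside 36% lower and 35.1% higher of all genes in the first and 31.6% and 30.1% in the second. The coactivator Ppargc1b had -0.81 ± 0.24 (adjusted p = 0.00392) and -1.72 ± 0.22 (adjusted p = 3.85e-05).

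The nuclear subunits of the complexes that mitochondrial mRNAs also serve were counted by complex, beside the same shares of all genes, and the complexes were not tested against each other. In complex I, 31 of 36 were lower and 0 higher with LPS and 25 lower and 0 higher with IL4CD40 (medians -0.52 and -0.41), among them the NADH-binding subunit Ndufv1 (-1.32 ± 0.07 and -1.11 ± 0.10), Ndufb10 (-1.03 and -0.75) and Ndufa12 (-0.52 and -1.10). In complex III, 5 of 9 were lower and 1 higher in each, with Uqcr11 at -1.62 and -1.20 and Uqcrh at 0.19 and 0.56. In complex IV, 4 of 11 were lower and 3 higher with LPS, and 0 lower and 3 higher with IL4CD40 (medians -0.06 and -0.00). The counts of complex IV with LPS were near the shares of all genes, 36% lower and 35.1% higher, as was its count of higher genes with IL4CD40, where 30.1% of all genes were higher. Those higher in both were Cox4i1 (0.40 ± 0.05 and 0.37 ± 0.06), Cox7a2 (0.22 and 0.36) and Cox7c (0.16 and 0.20). In complex V, 12 of 18 were lower and 1 higher with LPS and 7 lower and 2 higher with IL4CD40, with Atp5g1, a subunit of the rotor ring, at -0.94 and -0.71. Under total counts complex IV had 8 lower and 1 higher with LPS and 5 lower and 1 higher with IL4CD40. Of all 14154 genes with LPS 6686 were then lower and 3470 higher, and of all 14275 with IL4CD40 5833 and 3262.

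**Figure D4:**
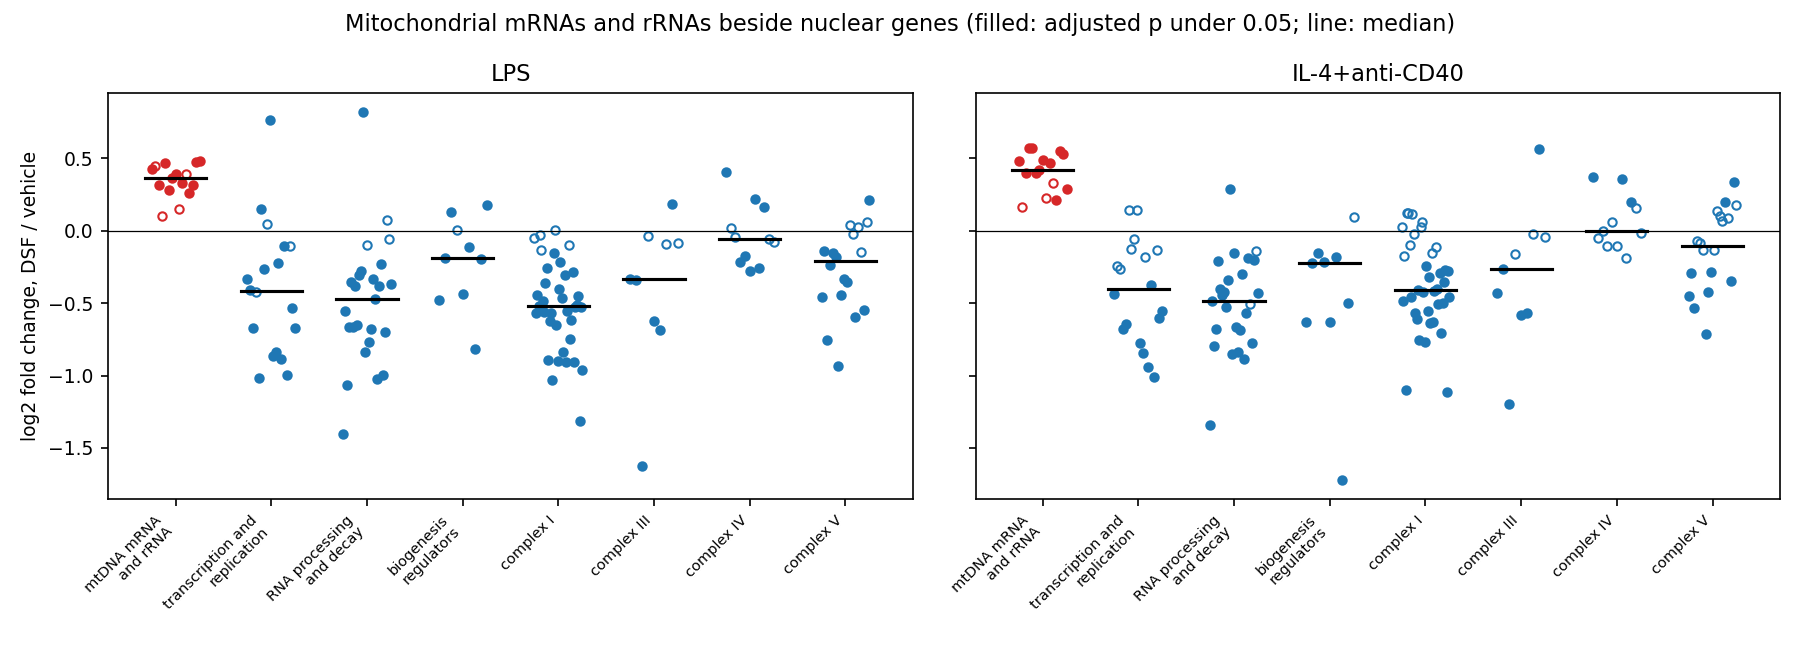
Log2 fold change of DSF against vehicle for the 15 mitochondrial mRNAs and rRNAs (red) and for nuclear genes of mitochondrial transcription, RNA processing, biogenesis and the respiratory complexes (blue), with LPS (left) and IL4CD40 (right). Filled points passed an adjusted p of 0.05 and lines are medians, which are 0.36 and 0.42 for the mitochondrial genes and -0.52 and -0.41 for complex I.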

How the data were processed

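Poly-T bead-selected RNA of the 27 libraries was trimmed with Fastp, mapped with HISAT2 2.0.5 to mm10 and counted per gene with featureCounts 1.5.0-p3 by the authors, who deposited raw counts and, from these counts, FPKM. The submitters' notes and methods do not name the annotation release, and the coordinates of all 37 genes equal those of GENCODE vM21. Counts of experiment 1 went into the quasi-likelihood test of edgeR 4.0.16, run in R 4.3.3 after filterByExpr and TMM scaling, for each pair of groups, with Benjamini-Hochberg adjustment over all genes and 0.05 as threshold. CPM in the text are TMM-normalized with all 20 libraries together. The deposited FPKM were used to compare levels between genes and, as an alternative, for the mitochondrial share. Experiment 2 was TMM-normalized on genes averaging at least 10 counts, and log2 ratios were taken after adding a prior count of 2. Sharing was counted as exact 50-base words, on the transcripts of GENCODE vM21, on either strand.

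Members and gene lists were chosen with earlier results of these data known. Named were all mitochondrial mRNAs and rRNAs, the tRNAs that passed a test or are discussed beside one, the nuclear genes with the largest changes (up to 3 per direction and list) and Polrmt, Tfam, Lrpprc, Slirp and Mtpap. Values per library were given for the members with the largest and smallest log2 fold change, both rRNAs, mt-Nd6 and class sums. Of 26 RNA processing genes listed, 25 were tested. Alternatives were total counts, DESeq2 1.42.0, its size factors in edgeR, TMM on nuclear genes, other filters (any count, or a minimum of 10 counts in each sample), one fit over all 20 samples, a replicate block, and leaving out each library, and after the data were seen either pair of unstimulated libraries. On simulated counts for DSF in LPS (13891 genes) the test found 100 of 100 genes planted at a log2 change of 1 and 79 of 100 at 0.5, with 8 false calls, and for DSF in IL4CD40 (14106 genes) 100 and 70 with 4. The simulation gave every gene the same dispersion, and planted equally many rises and falls in well-counted genes only. In the real comparisons spread differed between genes and far more genes changed, so these figures check the code and do not measure error rates in these data.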

Additional observations from a re-analysis of the deposited data

Results flagged for a closer look

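In groups of 4 libraries, 1 library stood far from the other 3 in 6 of 95 groups of values examined, and chance alone gives about 1 in 20 such cases. The share of counts on mitochondrial mRNAs was 1.85% in unstimulated replicate 1, the lowest of its group. Among single genes, mt-Nd2 stood high in unstimulated replicate 2 (1166 CPM), mt-Co2 high in LPS replicate 2 (102 CPM), mt-Co3 low in IL4CD40 replicate 3 (20.4 CPM) and high in IL4CD40 with DSF replicate 3 (47.8 CPM), and mt-Cytb low in LPS with DSF replicate 3 (3135 CPM). Of these genes, mt-Co2 and mt-Co3 are among the 5 mRNAs with over 90% of their sequence in nuclear copies.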

How the results depend on the processing

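The DSF calls on mitochondrial genes kept their direction under all alternatives run for these comparisons, with 8 to 14 higher in LPS and 11 to 16 in IL4CD40. Total counts ended 4 and 3 of these calls. Further, 1 gene was lower with LPS and DSF under total counts, and 1 with IL4CD40 and DSF under total counts, with all genes of any count and with the replicate block. Leaving out 1 library gave 11 to 14 higher and 0 to 1 lower in LPS, and 13 to 15 and 0 to 1 in IL4CD40. Relative to the mitochondrial mRNAs it gave 2 to 3 higher and 0 to 3 lower, and 0 to 2 higher and 2 to 6 lower, and with all 20 samples in one fit LPS had 0 higher and 0 lower. The relative value of mt-Co2 ran from -0.29 to 0.0199, turning without LPS replicate 2. For the difference between stimuli, DESeq2 called 1 lower, all genes with any count 2, and leaving out 1 library 0 to 1 in either direction. The replicate block was a shared number only (correlations of deviations -0.06 to 0.25). It gave 12 higher and 0 lower for DSF in LPS, 13 and 1 in IL4CD40, and 0 and 0 for LPS and 2 and 1 for IL4CD40 against unstimulated cells.

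Against unstimulated cells the calls rested on few genes. For LPS, DESeq2 called 2 higher, total counts 2 lower with mt-Cytb at -0.19, and all 20 samples in one fit 1 higher (2 relative to the mRNAs). Without 1 library 0 to 1 were higher and 0 lower, also relative to the mRNAs. With unstimulated replicates 1 and 2 only, 2 were higher and 5 lower, with mt-Rnr2 at -0.26 and mt-Nd3 at -0.31 (relative: 1 and 5, -0.32 and -0.36). With replicates 3 and 4 only, 14 were higher and 1 lower, with mt-Tn at 0.47 (relative: 14 and 1, 0.51). For IL4CD40, DESeq2 called 2 lower, total counts 5, any count 0 and all 20 samples 4, and at least 10 counts in every sample left 1 higher (relative: 1, and 7 higher and 1 lower with all 20 samples). Without 1 library 2 were higher and 0 to 2 lower (relative: 2 to 4 and 0). Replicates 1 and 2 only gave 6 lower (relative: 2, with mt-Tn at -0.45 and mt-Nd3 at -0.37). Replicates 3 and 4 only gave 6 higher and 2 lower, with mt-Tn at 0.59 and mt-Nd3 at 0.52 (relative: 13 and 1). Counts over all genes with either pair, without the scaling to the mRNAs, are given in the results above. Under total counts, 3455 of all 14433 genes were higher and 5573 lower with IL4CD40. The causes were not tested.

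The share against unstimulated cells moved on the log2 scale from -0.23 to -0.12 (LPS) and from -0.28 to -0.16 (IL4CD40) as a share of summed FPKM. Without 1 library it was -0.25 to -0.21 and -0.30 to -0.23, and for DSF 0.0888 to 0.13 in LPS and 0.197 to 0.27 in IL4CD40. In experiment 2 by total counts, LPS had 4 of 24 genes higher, DSF in LPS 6 lower and DSF in IL4CD40 2 lower. The medians over all genes were then -0.15, -0.34 and -0.25. Among genes averaging at least 100 counts, LPS had 2 higher, IL4CD40 1 higher, DSF in LPS 0 lower and ibrutinib in LPS 2 lower. Over all genes with that minimum the medians were 0.03, 0.03, -0.22 and 0.01. Shares of all genes were not counted under these settings. Depth limits mt-Atp8 (mean count 14.8) and the 14 heavy-strand tRNAs (114 to 322 counts per library in sum).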
